A study of Mus musculus with 4 samples.

Results

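The genes of the major histocompatibility complex (MHC) class II pathway were followed through single lung cells of old mice given BPTES or its vehicle. The 8 genes are H2-Aa, H2-Ab1 and H2-Eb1, which encode antigen-presenting chains, Cd74, Ciita, H2-DMa, H2-DMb1 and H2-DMb2. They were taken by symbol, and each had 1 row among the 31054 genes of the count matrices. All 8 were detected in each of the 4 libraries, from 7551 UMIs (unique molecular identifiers, 1 per captured RNA molecule) of Ciita to 721779 UMIs of Cd74 in a library.

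The lungs came from male C57BL/6 mice that were 19 months old at the start and received BPTES, an inhibitor of the glutaminase GLS1, or DMSO, the vehicle, for 1 month, with 2 libraries in each group. The tissue was digested with Liberase for 1 hour, and 20000 sorted CD45- cells and 9000 sorted CD45+ cells (CD45 marks blood-derived cells) were mixed for each library. Shares of cell types are therefore set in part by the sort, and are not compared here. The libraries held 16440 to 21986 cell barcodes and 260346570 to 342107092 UMIs. A total of 573 barcodes occurred in 2 libraries and 2 in 3 libraries, of 73480 distinct barcodes. After filtering, 63895 cells fell into 37 clusters, which were built without the class II genes. Of these, 30 clusters were joined by marker genes into 24 classes with names ending in "-like", because no deposited annotation was used, and 7 clusters with 12307 cells (19.3%) stayed unnamed. None of the labels says whether the 2 libraries of a group came from separate mice, so the p-values below measure only the spread between these libraries.

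MHC class II molecules display peptides from outside the cell to CD4+ T cells. They are made by professional antigen-presenting cells, which are dendritic cells, macrophages and B cells, and in the lung also by alveolar type 2 cells and capillary endothelium. An alpha chain (H2-Aa) and a beta chain (H2-Ab1) form the I-A molecule. H2-Eb1 encodes the beta chain of I-E, a molecule that C57BL/6 mice do not assemble because their I-E alpha gene, H2-Ea, is defective. Cd74 encodes the invariant chain, which blocks the groove until the endosome is reached. There H2-DM, made of an alpha chain (H2-DMa) and 1 of 2 beta chains (H2-DMb1 or H2-DMb2), exchanges the last piece of Cd74 for a peptide. H2-DO, made of H2-Oa and H2-Ob, holds H2-DM back. Ciita encodes the transactivator that switches the whole set on. It does not bind DNA itself and is held at the promoters by factors that sit on the X and Y boxes.

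Promoters of members are printed here to show where the letters of those boxes stand in them, where they were found. RefSeq promoter windows of GRCm38.p6, 300 bases long with 250 before and 50 after the start of transcription, were matched for 5 of the 8 genes (H2-Aa, H2-Eb1, H2-DMa, H2-DMb1 and H2-DMb2). The Y box was searched as TGATTGG and the X box as AACNGATG, on both strands. The matches to the 2 motifs do not overlap. For each gene 100 bases are shown on its own strand, beginning 130 bases before the start, with the X box and Y box in capitals.
H2-Aa: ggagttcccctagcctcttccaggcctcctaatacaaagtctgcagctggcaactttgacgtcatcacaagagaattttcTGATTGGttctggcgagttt
H2-Eb1: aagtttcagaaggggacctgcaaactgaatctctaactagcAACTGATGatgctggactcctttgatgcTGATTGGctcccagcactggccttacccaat
H2-DMb2: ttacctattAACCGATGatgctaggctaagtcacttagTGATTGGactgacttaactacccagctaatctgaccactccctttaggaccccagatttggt
The windows are chr17:34287854-34287953 (minus strand), chr17:34305737-34305836 (plus strand) and chr17:34145119-34145218 (plus strand). In H2-Eb1 the X box began 89 bases and the Y box 61 bases before the start, with 20 bases between them. In H2-DMb2 the same pair stood farther upstream, at 121 and 92 bases, with 21 bases between them. H2-DMb1 held the pair at 92 and 63 bases, also with 21 bases between them. H2-Aa held the Y box, 50 bases before the start, and no match to the X box letters, and neither window of H2-DMa held a match. Both H2-DMa windows (chr17:34122582-34122881 and chr17:34125268-34125567) lie inside its annotated span, chr17:34119541-34139101. The whole window of H2-DMb2 (chr17:34144999-34145298) likewise lies inside its annotated span, chr17:34143307-34151555. Distances are counted from the RefSeq start of each window. Which start of H2-DMa or H2-DMb2 is used in these cells was not tested. The Y box was thus found for 4 of the 5 genes and the X box for 3. Over all 32851 promoter windows, 7.82% held the Y box, 2.32% the X box and 0.186% both. A match is a description of the letters and was not tested as a binding site.

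Of the 8 genes, 6 lie close together. H2-Ab1 (ENSMUSG00000073421, chr17:34257689-34269419), H2-Aa (ENSMUSG00000036594, chr17:34282744-34287823), H2-Eb1 (ENSMUSG00000060586, chr17:34305867-34316674), H2-DMa (ENSMUSG00000037649, chr17:34119541-34139101), H2-DMb2 (ENSMUSG00000037548, chr17:34143307-34151555) and H2-DMb1 (ENSMUSG00000079547, chr17:34153072-34160230) lie in the MHC of chromosome 17 in mm10. Cd74 (ENSMUSG00000024610) is at chr18:60803848-60812652 and Ciita (ENSMUSG00000022504) at chr16:10480059-10528418. Reads of 2 near-identical copies could be shared: of the 50-base words in the last 600 bases of the transcripts, where a 3' method reads, 29.6% of those of H2-DMb1 (341 of 1153) also occur in H2-DMb2, and 11.5% of those of H2-DMb2 (64 of 557) occur in H2-DMb1. The split between these 2 genes is therefore uncertain. No word was shared by H2-Eb1 and H2-Eb2 (0 of 1626).

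The 3 antigen-presenting chains and Cd74 were highest in dendritic, macrophage and B cell classes, and type 2-like cells led the cells that are not of blood origin. Levels are given in CPM, the UMIs of a gene over all UMIs of the class in that library, scaled to a fixed total, and as the mean ± SD over all 4 libraries, both treatments included. A 3' tag method counts 1 tag per molecule, so CPM is not divided by gene length. The sum of H2-Aa, H2-Ab1, H2-Eb1 and Cd74 was 37284 ± 3427 CPM in conventional dendritic-like cells, with 41832 and 33517 after BPTES and 37064 and 36722 after vehicle. It was 31757 ± 5157 CPM in interstitial macrophage-like cells, whose libraries spread from 25666 to 36928 and overlapped the dendritic range. B-like cells had 19849 ± 1490 CPM, with every library below every interstitial macrophage-like value. These 3 classes formed the top of the order.

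Below a gap that no library crossed came alveolar macrophage-like cells with 5793 ± 2597 CPM, type 2-like cells with 4810 ± 405 CPM, classical monocyte-like cells with 3705 ± 579.7 CPM, plasma-like cells with 3602 ± 412 CPM, non-classical monocyte-like cells with 2371 ± 787 CPM, general capillary-like cells with 2197 ± 382 CPM and venous-like cells with 1803 ± 292 CPM. Neighbours in this run overlapped, so their order is not fixed by these libraries. The type 2-like cells, which make surfactant in the alveolus, had the smallest SD of them relative to the mean, with 5238 and 4819 CPM with BPTES and 4265 and 4918 CPM with DMSO. Their sum was 10.1 times that of type 1-like cells (476 ± 193 CPM), the flat gas-exchange cells that type 2 cells give rise to. It was 88.3 times that of alveolar fibroblast-like cells (54.5 ± 8.26 CPM), the lowest class. Conventional dendritic-like cells exceeded type 2-like cells 7.75-fold, and B-like cells exceeded them 4.13-fold.

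The endothelial classes split by vessel type. General capillary-like cells held 24.2 times the sum of aerocyte-like cells (90.7 ± 8.18 CPM), the other capillary cell of the alveolus, and 4.38 times that of arterial-like cells (501 ± 96.7 CPM). Venous-like cells stood with the general capillary-like cells, 3.6 times above the arterial-like ones, and no library of either crossed into the arterial range. Lymphatic-like cells had 310.0 ± 112 CPM. Within the general capillary-like class, the cluster of 7132 cells had 2346 CPM and that of 3870 cells 1838 CPM, while a cluster of 78 cells had 105 CPM and no Ciita. An unnamed cluster of 5339 cells, which scored best as general capillary but was led by the arterial genes Gja4, Sox17 and Efnb2, had the highest sum among these endothelial clusters, 2935 CPM. It also had 54.4 CPM of Ciita, and 422 CPM of Irf1, a transcription factor of the interferon response that acts on Ciita. Irf1 was at 531 CPM in the first of these clusters and at 223 CPM in the second.

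The remaining classes were low. T-like cells (94.8 ± 34.8 CPM), club-like cells (89.1 ± 25 CPM) and adventitial fibroblast-like cells (73.2 ± 15.9 CPM) stood near the aerocyte-like level, and ciliated-like (146 ± 48.6 CPM), pericyte-like (123 ± 51.5 CPM), mesothelial-like (184 ± 126 CPM) and neutrophil-like cells (190.1 ± 44.2 CPM) slightly above it. How much of these low levels is free RNA was not tested. NK-like cells showed how far 2 cells can carry a mean. Their sums were 751 and 94.7 CPM with BPTES and 112 and 769 CPM with DMSO. In the 2 high libraries 1 cell alone held 1269 and 1276 class II UMIs, and the 2 richest cells held 86.2% and 79.4% of the total. Without the 2 richest cells of each library, a choice made after the values were seen, the 4 libraries fell to 1.54, 1.15, 1.13 and 2.16 UMIs per cell.

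**Figure D1:**
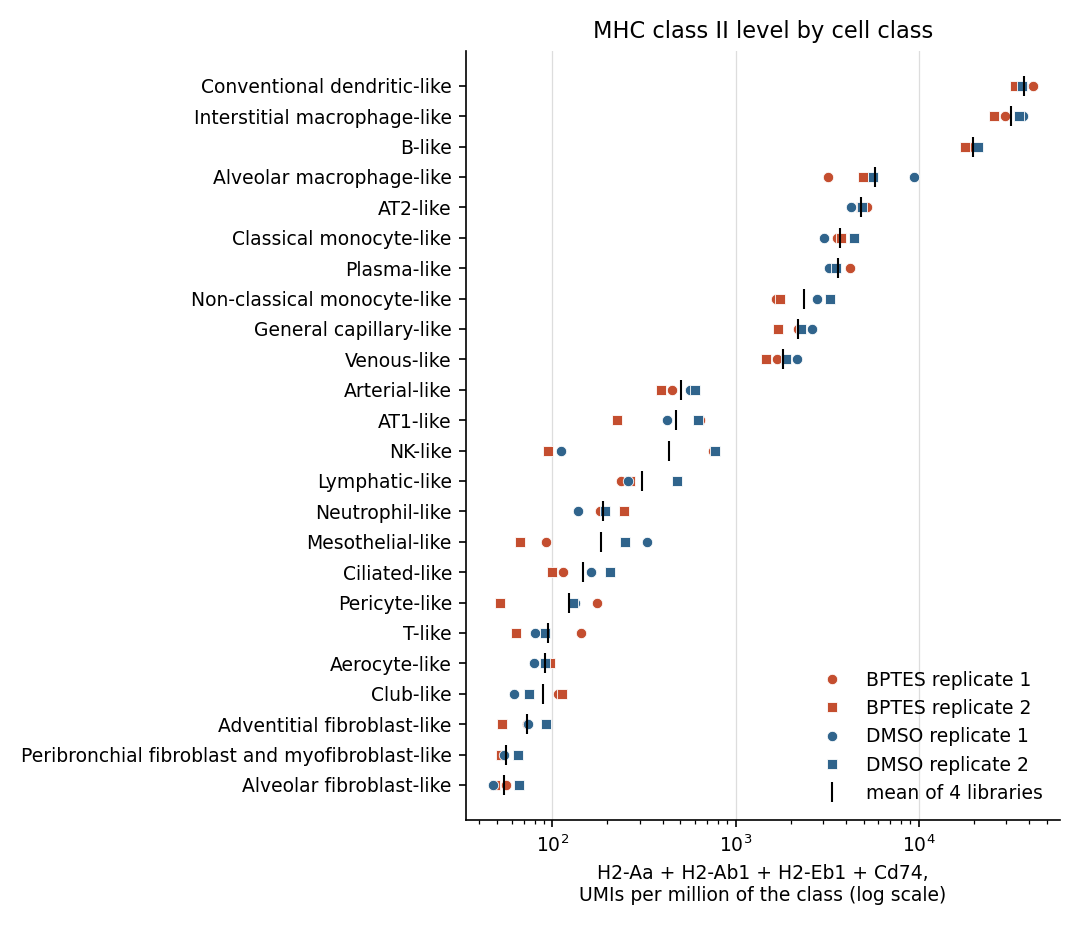
Summed H2-Aa, H2-Ab1, H2-Eb1 and Cd74 in CPM (log axis) for each of the 24 classes, with 1 point per library coloured by treatment and a bar at the mean. Conventional dendritic-, interstitial macrophage- and B-like cells lie at or above 17757 CPM in every library, type 2-like cells near 4810 CPM and general capillary-like cells near 2197 CPM, far above the aerocyte-like cells at 90.7 CPM.

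The 4 abundant genes, taken singly, were highest in the same 3 classes. Cd74 was the most abundant, with 16062 ± 1598 CPM in conventional dendritic-like, 13027 ± 2207 CPM in interstitial macrophage-like and 10401 ± 756 CPM in B-like cells, 2826 ± 252 CPM in type 2-like cells and 1072 ± 210.4 CPM in general capillary-like cells. It made up 58.7% of the summed UMIs in type 2-like cells, against 43.1% in conventional dendritic-like and 41.0% in interstitial macrophage-like cells. By the mean CPM given here, B-like and general capillary-like cells lay between the type 2-like and conventional dendritic-like shares. H2-Aa, the I-A alpha chain, was at 7755 ± 642, 7226 ± 1004 and 3938 ± 309 CPM in the 3 professional classes in that order, at 997 ± 79.3 CPM in type 2-like cells and at 424 ± 65.3 CPM in general capillary-like cells. H2-Ab1, its beta chain partner, was at 7019 ± 612, 5628 ± 919 and 2747 ± 229.9 CPM in the same 3 classes, at 608 ± 53.0 CPM in type 2-like and at 402 ± 60.4 CPM in general capillary-like cells. H2-Eb1, whose partner these mice lack, was still at 6448 ± 604 CPM in conventional dendritic-like, 378 ± 25 CPM in type 2-like and 299 ± 48.9 CPM in general capillary-like cells. In interstitial macrophage-like cells (5875 ± 1051 CPM) and B-like cells (2763 ± 221 CPM) H2-Eb1 was level with H2-Ab1 within the spread, while in type 2-like cells it lay below it.

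The conventional dendritic-like class was split again, after its values were seen, into 10 groups of cells. A group of 149 cells with Mmp12 and Mgl2 among its leading genes had the highest sum, 58411 ± 3897 CPM. A group of 208 cells led by Xcr1 and Itgae, genes of cross-presenting type 1 dendritic cells, had 45331 ± 3078 CPM, and a group of 193 cells with the monocyte genes F13a1 and Fn1 had 38050 ± 916 CPM. The 45 cells with Fscn1 and Cacnb3 among their leading genes, which mark mature dendritic cells, had 15659 ± 3634 CPM of the sum, 83.6 ± 17.7 CPM of H2-DMa and 35.8 ± 17.2 CPM of H2-DMb1. A group of 71 cells with the plasmacytoid genes Siglech, Ccr9 and Cox6a2 had 8220 ± 1825 CPM. In 67 cells led by Cd7 the antigen-presenting chains and the loading genes parted: the sum was 6132 ± 2319 CPM, while H2-DMa (709 ± 73.5 CPM) and H2-DMb1 (641 ± 46.3 CPM) were close to the level of the whole class. The class also held 29 cells led by the B cell genes Igkc and Cd79a, 56 cells with T cell genes and 20 cells with basophil genes, the last at 109.6 CPM, so it is not pure.

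Ciita and the loading genes did not scale alike with the antigen-presenting chains. Ciita, the transactivator, was at 155 ± 18.6 CPM in conventional dendritic-like, 138 ± 7.0 CPM in B-like and 125 ± 1.16 CPM in interstitial macrophage-like cells. General capillary-like cells had 36.8 ± 5.44 CPM, above type 2-like cells with 25.1 ± 2.24 CPM, although their sum of chains was lower. Per 1000 UMIs of the chains and Cd74, this was 16.8 ± 0.59 Ciita UMIs in general capillary-like cells and 16.4 in venous-like cells. The same ratio was 5.23 in type 2-like cells, 7.0 in B-like cells and 4.2 in conventional dendritic-like cells, and no library of these 3 classes reached the lowest capillary library. Non-classical monocyte-like cells had the lowest ratio of the classes with a sum above 1000 CPM other than plasma-like cells, 2.89, with 6.65 ± 1.76 CPM of Ciita against 24.3 ± 3.57 CPM in classical monocyte-like cells.

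H2-DMa was at 683 ± 37.5 CPM in conventional dendritic-like, 475 ± 44.4 CPM in interstitial macrophage-like, 311 ± 13 CPM in B-like and 70.2 ± 5.86 CPM in type 2-like cells. Classical monocyte-like cells had 209 ± 8.53 CPM of H2-DMa and non-classical monocyte-like cells 48.5 ± 8.17 CPM, a wider gap than the 1.56-fold of the summed chains and Cd74. The 2 beta chains separated B-like cells from the other classes given here. H2-DMb1 exceeded H2-DMb2 in conventional dendritic-like (646 ± 35.1 against 186 ± 26.7 CPM), interstitial macrophage-like (473 ± 31.9 against 53.4 ± 24.9 CPM), type 2-like (111 ± 3.66 against 6.21 ± 0.629 CPM) and general capillary-like cells (102 ± 13.5 against 1.01 ± 0.385 CPM). In B-like cells the order was turned, with 198 ± 16.6 CPM of H2-DMb1 and 642 ± 41.1 CPM of H2-DMb2. H2-DMb2 per H2-DMb1 was therefore 3.25 ± 0.171 in B-like cells, 0.288 ± 0.036 in conventional dendritic-like cells, 0.0561 in type 2-like cells and 0.00973 in general capillary-like cells. The shared 3' words named above bear on both counts, and their part in these ratios was not tested. H2-Oa and H2-Ob, the chains of the H2-DM inhibitor H2-DO, were also highest in B-like cells, at 191 ± 24.6 and 412 ± 14.0 CPM, against 111 ± 15.3 and 95.1 ± 2.61 CPM in conventional dendritic-like cells. Within the dendritic groups, the Mmp12 and Mgl2 cells had the most H2-DMb2, 528 ± 25.2 CPM, against 117 ± 18.2 CPM in the Xcr1 cells. The order was turned, as in B-like cells, in the 45 cells with Fscn1 and Cacnb3. They had 67.9 ± 20.1 CPM of H2-DMb2 and 35.8 ± 17.2 CPM of H2-DMb1.

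**Figure D2:**
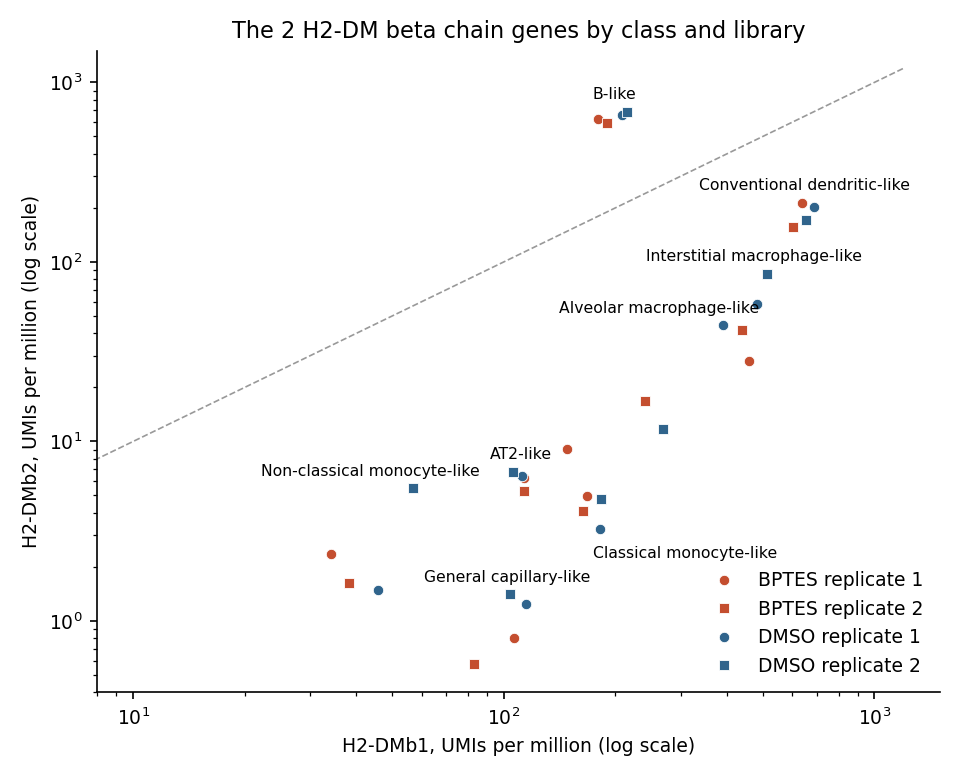
H2-DMb1 (x axis) against H2-DMb2 (y axis), both in CPM on log axes, with 1 point per library for 8 classes and a dashed line of equality. The B-like points lie above the line, near 642 CPM of H2-DMb2 for 198 CPM of H2-DMb1, and the other classes drawn lie below it.

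Across the 24 classes, the log2(CPM + 1) levels of H2-Aa, H2-Ab1, H2-Eb1, Cd74, Ciita, H2-DMa and H2-DMb1 had pairwise Pearson correlations of 0.945 to 0.997, and H2-DMb2 stood apart with 0.693 to 0.825. The classes share libraries, so no p is given. The genes whose pattern was most like the mean of the 4 abundant ones were Gm20513 (r = 0.896), which is annotated on the opposite strand of H2-Eb1 and whose reads may be hard to keep apart from it, AC117662.4 (0.817), Cd83 (0.815), which slows the turnover of class II molecules, Pkib (0.798), Kynu (0.795), Kmo (0.79), Pld4 (0.786), Fgd2 (0.784), Cd180 (0.782) and Lat2 (0.78).

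BPTES and DMSO libraries were then compared within each class, from UMIs summed per library and class and tested over all genes of that class with edgeR's quasi-likelihood test and Benjamini-Hochberg adjustment at 0.05. None of the 144 tests of a member in the 20 classes with enough cells passed. The lowest adjusted p of edgeR was 0.114. At an unadjusted p under 0.05 there were 41 tests, 39 of them lower with BPTES. Over all genes of the same classes, 12.4% of tests were under that level and 6.34% were under it and lower with BPTES. DESeq2 called 5 of the 122 member tests to which it gave an adjusted p, against 1.54% of such tests over all genes. They were the 4 abundant genes in non-classical monocyte-like cells and H2-DMb2 in interstitial macrophage-like cells. The fold change was below 0 in 99 of the 144 tests, which share libraries and are not independent. The median of the 4 abundant genes' fold changes was below 0 in 15 of the 20 classes.

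Few genes of any kind passed in these classes, which is the background for that count. The share of all tested genes called by edgeR was 0% in non-classical monocyte-, general capillary-, venous-, alveolar macrophage-, T-, NK-, pericyte- and adventitial fibroblast-like cells. It was 0.00824% in ciliated-like, 0.0102% in arterial-like, 0.0157% in B-like, 0.0243% in conventional dendritic-like, 0.0347% in peribronchial fibroblast and myofibroblast-like and 0.0431% in aerocyte-like cells. It was 0.156% in classical monocyte-like, 0.192% in type 2-like, 0.232% in interstitial macrophage-like, 0.281% in alveolar fibroblast-like, 0.486% in lymphatic-like and 1.69% in neutrophil-like cells.

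**Figure D3:**
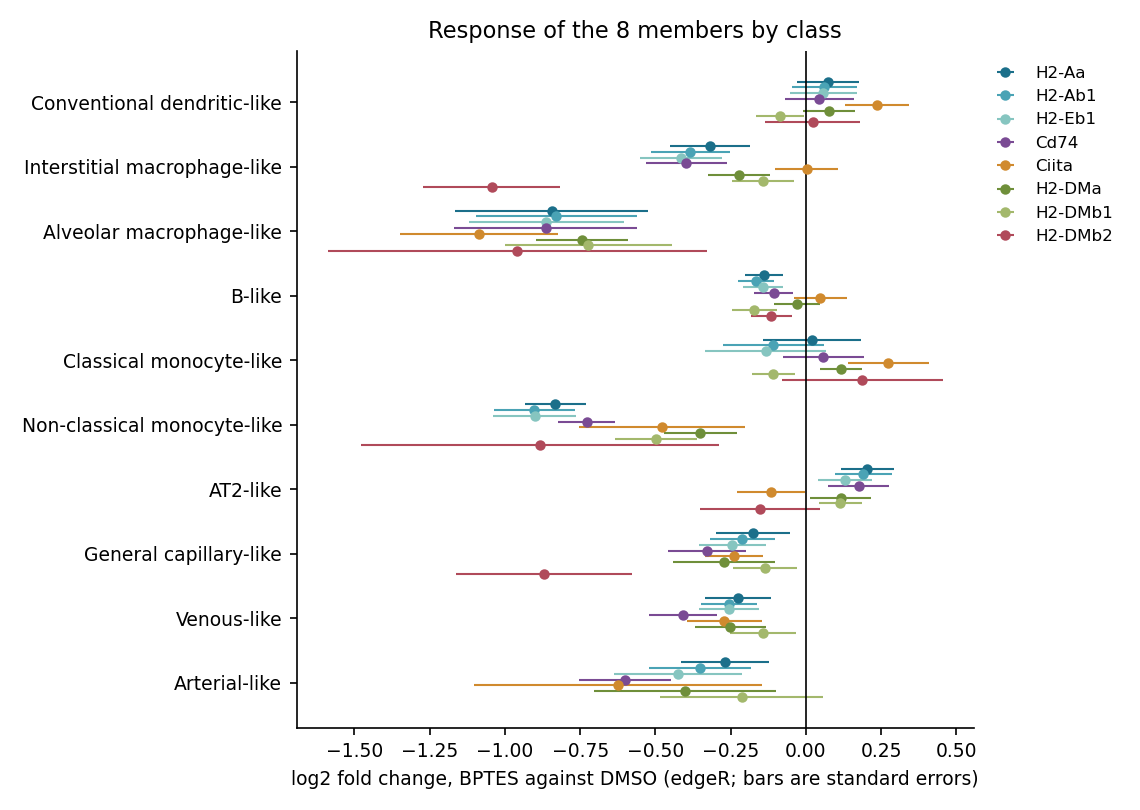
Log2 fold change of BPTES over DMSO (x axis) for the members tested in 10 of the classes (y axis), from edgeR, with 1 colour per gene, bars for the standard error and a line at 0. In non-classical monocyte-like cells the 4 abundant genes lie together between -0.90 and -0.73, those of type 2-like cells lie between 0.13 and 0.20, and no gene drawn passed the adjusted threshold.

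The fold changes that were largest for their standard error, of the 144, were those of the 4 abundant genes in non-classical monocyte-like cells, which patrol the vessel wall. H2-Aa was at 301 and 341 CPM with BPTES and 547 and 620 CPM with DMSO, a log2 fold change of -0.83 ± 0.101 (SE) with an edgeR adjusted p of 0.14. H2-Ab1 was at 234 and 273 CPM against 428 and 538 CPM (-0.90 ± 0.134, edgeR adjusted p = 0.204). H2-Eb1 was at 162 and 192 CPM against 298 and 374 CPM (-0.90 ± 0.138, edgeR adjusted p = 0.214). In these 3 antigen-presenting chains both BPTES libraries lay below both DMSO libraries. Cd74, the invariant chain, was at 973 and 948 CPM against 1513 and 1742 CPM (-0.73 ± 0.094, edgeR adjusted p = 0.14), again without overlap. The loading genes H2-DMb1 (34.2 and 38.2 against 45.8 and 56.9 CPM, -0.50) and H2-DMa (46.0 and 38.3 against 52.6 and 57.1 CPM, -0.35) were lower without overlap too, by less. Ciita (4.89 and 6.27 against 6.36 and 9.09 CPM, -0.48) and H2-DMb2 (2.35 and 1.63 against 1.48 and 5.50 CPM, -0.88) were low, and their edgeR adjusted p were 0.693 and 0.724.

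On the TMM-normalized scale of the test, 6 of the 8 members were lower in both BPTES libraries in this class, where 20.2% of all tested genes were lower in both. Ciita was lower in both by CPM and overlapped on the normalized scale, and H2-DMb2 overlapped on either. The median fold change was -0.78 over the 8 members, -0.87 over the 4 abundant ones and -0.004 over all 11811 genes tested. edgeR called 0 of those 11811 genes, and 974 (8.25%) had an unadjusted p under 0.05. The call for the 4 abundant genes depended on the fit. DESeq2 called all 4, with adjusted p from 1.30e-09 to 2.01e-07, where it called 0.179% of all genes lower. edgeR called all 4 without DMSO replicate 1 (adjusted p = 0.0388) and without DMSO replicate 2 (adjusted p 0.0237 to 0.0380), where it called 12 and 141 genes in all, and none without BPTES replicate 1 (0.461 to 0.709) or BPTES replicate 2 (0.511 to 0.865). Over 16 alternatives the fold change stayed below 0 for each of the 4, from -0.94 to -0.71 for H2-Aa, -1.07 to -0.69 for H2-Ab1 and for H2-Eb1, and -0.85 to -0.59 for Cd74.

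Classical monocyte-like cells, the inflammatory monocytes from which the non-classical ones arise, had fold changes near 0. Cd74 was at 1958 and 1946 CPM with BPTES and 1589 and 2233 CPM with DMSO (0.06 on the log2 scale), and H2-Aa (0.02), H2-Ab1 (-0.11) and H2-Eb1 (-0.13) were likewise near 0, with edgeR adjusted p from 0.80 to 0.97. These values depend on the DMSO libraries: Cd74 was called higher with BPTES without DMSO replicate 2 (0.32, edgeR adjusted p = 0.00371), where 359 of 12507 genes were called, and was at -0.16 without DMSO replicate 1. It was not called in the other 15 alternatives. The difference between the 2 responses was tested itself, in 1 edgeR model with the library as a block. It passed for Cd74 (-0.79 ± 0.0889, adjusted p = 0.0205), H2-Ab1 (-0.79 ± 0.0944, adjusted p = 0.0219) and H2-Aa (-0.86 ± 0.108, adjusted p = 0.029), and not for H2-Eb1 (-0.78 ± 0.118, edgeR adjusted p = 0.0601). These 3 genes were among only 6 of 12790 genes called (0.0469%, and 0.0391% called lower). The call was lost without BPTES replicate 1 (edgeR adjusted p 0.203 to 0.407) or BPTES replicate 2 (0.271 to 0.316) and extended to all 4 without DMSO replicate 1 or DMSO replicate 2, where 68 and 140 of all genes were called in place of 6. Against B-like cells (0.0152% of genes called) and T-like cells (0.00744% of genes called) no member's difference passed: for Cd74 against B-like cells it was -0.62 with an edgeR adjusted p of 0.269.

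Within the non-classical monocyte-like class, few cells carried most class II RNA. Each cell was thinned to 3000 UMIs to make depths equal, which kept 668, 572, 290.0 and 752 cells. At least 3 UMIs of the chains and Cd74 were then found in 19.8% (exact 95% binomial interval 16.8% to 23.0%) and 17.3% (14.3% to 20.7%) of cells with BPTES. With DMSO it was 26.9% (21.9% to 32.4%) and 34.7% (31.3% to 38.2%). Intervals cover counting error only. Without thinning the shares were 53.0%, 47.9%, 53.6% and 64.9%, at median depths from 13358 to 15178 UMIs. In T-like cells, which should lack these RNAs, the thinned share was 0% to 2.36%, at median depths from 15797.5 to 16303 UMIs, so the monocyte shares are above that background. At least 10 thinned UMIs were found in 7.49% and 7.87% of cells with BPTES and 14.1% and 13.2% with DMSO. The groups did not overlap at either bound, and the exact two-sided permutation p was 0.333, the smallest that 2 against 2 libraries allow.

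The cells above 10 thinned UMIs, 95 with BPTES and 140 with DMSO, had mean levels of 40.2 and 42.3 UMIs. In the 4 libraries 7, 6, 4 and 23 cells lay just below the bound, at 8 to 9 UMIs, and 4, 4, 3 and 17 just above it, at 10 to 12. Ciita was detected in 29.3% to 32% of the cells above the bound and in 0% to 1.22% of the cells with no class II UMI. The summed non-classical monocyte markers were at 3560 to 3979 CPM in the former and 4127 to 4446 CPM in the latter. Dendritic genes summed to 11.1 to 63.3 CPM above the bound against 4.94 to 24.1 CPM in cells at 0, and interstitial macrophage genes to 12.5 to 70.1 against 3.23 to 13.5 CPM. The median doublet score was 0.022 to 0.0454 against 0.0062 to 0.0093. Over the whole class, the 8 dendritic genes summed to 12 and 8.24 CPM with BPTES and 19.7 and 18.8 CPM with DMSO, with 1 of them at 0 in BPTES replicate 1 and in DMSO replicate 1. The 5 interstitial macrophage genes summed to 3.67 and 10.4 CPM with BPTES and 14.8 and 16.6 CPM with DMSO, with none at 0. The sums of both lists moved with the class II genes, but the single dendritic genes did not all do so. Of the 8, 4 could be tested: log2 fold changes were 0.63 for Flt3, -0.08 for Zbtb46, -1.11 for Cd209a and -2.62 for Ccr7. Their edgeR adjusted p ran from 0.326 to 0.979. The part of admixed or fused cells in the fall was not tested.

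**Figure D4:**
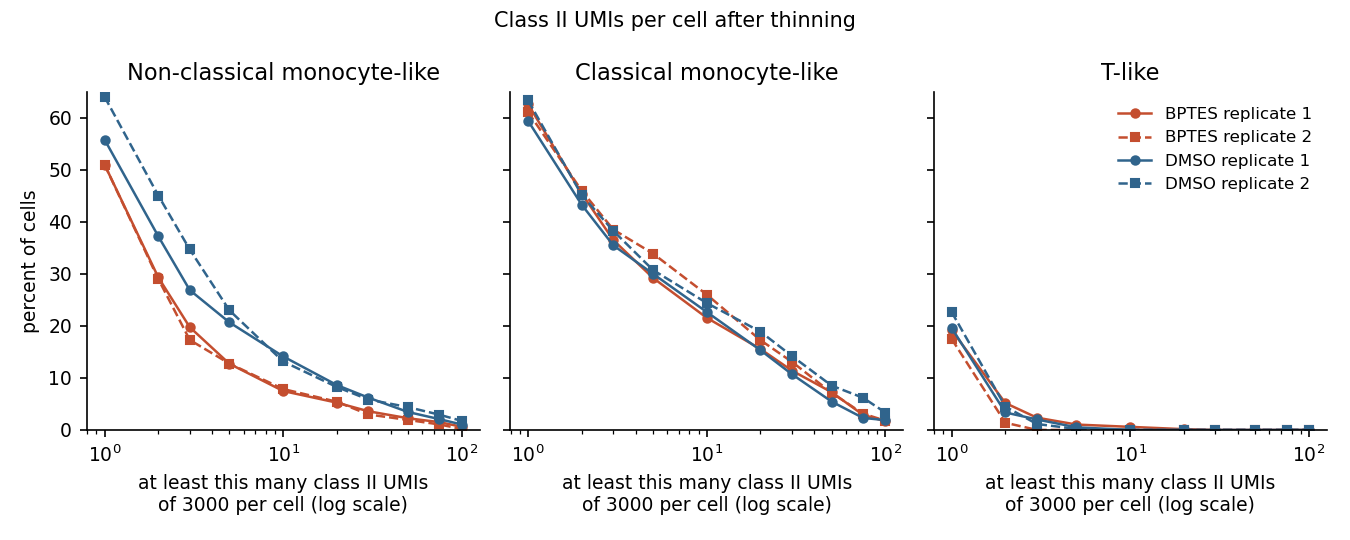
Share of cells (y axis, percent) with at least a given number of class II UMIs after thinning to 3000 UMIs (x axis, log scale), 1 line per library, for non-classical monocyte-, classical monocyte- and T-like cells. In the non-classical panel both BPTES lines run below both DMSO lines at 3 UMIs (19.8% and 17.3% against 26.9% and 34.7%) and at 10 UMIs, while the classical lines lie together, with 21.6% and 26.0% against 22.7% and 24.4% at 10 UMIs.

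Free B cell RNA was measured as a possible contribution to the fall, with an index of 7 B cell genes (among them Cd79a, Cd79b, Ms4a1 and Ighd). The index came to 0.32 and 0.322 UMIs per non-classical monocyte-like cell after BPTES, and to 0.321 and 0.495 after DMSO. In B-like cells of the same libraries it was 65.3, 58.4, 64.8 and 66.5, so the monocyte-like cells carried 0.49%, 0.551%, 0.496% and 0.744% of the B level. None of the 7 genes was at 0 in any library. Cd79b stood apart from the others. It was detected in 11% to 17.7% of the monocyte-like cells, at 1.44% to 2.14% of its B level, and gave 0.226 and 0.17 of the index UMIs per cell with BPTES and 0.127 and 0.207 with DMSO. It was also found in 50.2% to 61.8% of alveolar type 2-like cells, which were deeper. Their median depths were 43097.5 to 47147.5 UMIs, against 13358 to 15178 UMIs in the monocyte-like cells. The other 6 genes together came to 0.0942 and 0.152 UMIs per monocyte-like cell with BPTES and 0.195 and 0.288 with DMSO, or 0.172%, 0.307%, 0.348% and 0.507% of the B level, lower in both BPTES libraries than in either DMSO library. The share of the B level given by all 7 genes, applied to the B-like cells' class II RNA, would give 1.25 and 1.19 UMIs of the chains and Cd74 per cell with BPTES and 1.26 and 1.98 with DMSO. Observed were 25.7 and 24.9 UMIs per cell with BPTES and 42.7 and 50.1 with DMSO. The expected UMIs are 2.95% to 4.88% of the class II UMIs seen. With Cd79b left out of the index they are 1.71% and 2.67% with BPTES and 2.07% and 2.69% with DMSO.

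The fall itself was 21.1 UMIs per cell, from a mean of 46.4 to 25.3, and the fall expected from the index was 0.395 UMIs, or 1.88% of it. That share rests on DMSO replicate 2: it was 0.211% without that library and 3.04% without DMSO replicate 1, against 1.99% without BPTES replicate 1 and 1.76% without BPTES replicate 2. With Cd79b left out of the index, a choice made after seeing the data, the fall expected was 0.562 UMIs, or 2.67%, and 1.91% to 3.27% without each library in turn. By gene, with all 7 genes, the expected share of the fall was 1.89% for H2-Aa, 1.66% for H2-Ab1, 2.27% for H2-Eb1, 1.85% for Cd74, 4.03% for Ciita, 2.21% for H2-DMa and 1.75% for H2-DMb1. H2-DMb2, the beta chain that B-like cells hold in excess, was the exception with 53.0%. Its CPM in DMSO replicate 1, given above, lay below both BPTES libraries, so this fall and its share rest on DMSO replicate 2. With Ighm and Igkc added to the index the share was 6.39%. T-like cells held 2.42, 1.02, 1.33 and 1.5 UMIs of the chains and Cd74 per cell, at an index of 0.216, 0.105, 0.176 and 0.198 UMIs per cell, which is below that of the monocyte-like cells in each library. In each library the index would bring fewer class II UMIs than the T-like cells held, so it does not cover all of their class II RNA. The source of the rest was not tested. Subtracting the expected B cell RNA left the 4 abundant genes uncalled, with edgeR adjusted p from 0.134 to 0.185.

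**Figure D5:**
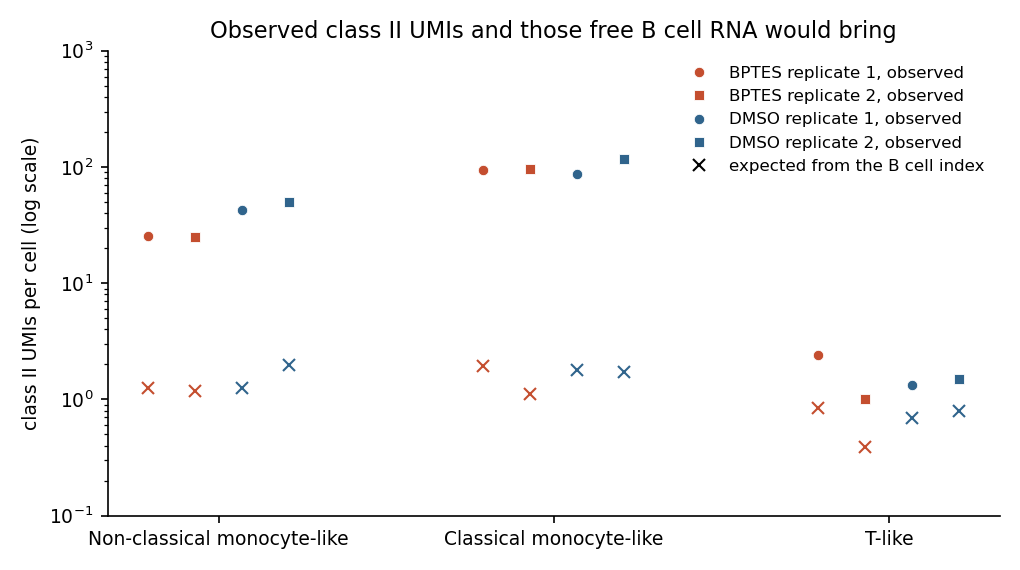
Class II UMIs per cell (y axis, log scale) observed (filled points) and expected from free B cell RNA (crosses), by library, in non-classical monocyte-, classical monocyte- and T-like cells. In non-classical monocyte-like cells the observed 25.7 and 24.9 (BPTES) and 42.7 and 50.1 (DMSO) stand far above the expected 1.25, 1.19, 1.26 and 1.98.

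The estimate was also made in other classes, where depth matters to it. Scaled to the depth of each class, a choice made after the values were seen, the expected share of the fall in non-classical monocyte-like cells was 1.75%. Ciliated-like cells had 7 of 7 tested members lower without overlap (19.8% of all genes tested there), with log2 fold changes of the 4 abundant genes from -1.07 to -0.56, and the lowest edgeR adjusted p was 0.267. Their index was 0.0714 and 0.348 UMIs per cell with BPTES and 0.558 and 0.689 with DMSO. Their class II UMIs were 3.63 per cell with BPTES and 5.25 with DMSO, and the B cell RNA expected from the index differed by 104% of that. The BPTES cells were deeper, with 33936 and 33633 UMIs per cell against 25770 and 30389, and scaled to depth the share was 83.1%. Without cells of 2 or more index UMIs the 4 abundant genes lay between -0.58 and -0.05 on the log2 scale, with edgeR adjusted p from 0.702 to 0.988. In interstitial macrophage-like cells, the class II level scaled to depth was 27548 CPM with BPTES and 35966 CPM with DMSO, and the difference expected from the index was 8.18% of that fall. Without scaling it was 34.6% of a smaller fall (919 against 968 UMIs per cell), since the BPTES cells were deeper here too.

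Interstitial macrophage-like cells, which sit in the tissue around vessels and airways, had 7 of 8 members lower without overlap (23.2% of all genes). The 4 abundant genes changed by -0.42 to -0.32 on the log2 scale with edgeR adjusted p from 0.22 to 0.32, and Ciita by 0.00. H2-DMb2 was at 28.1 and 41.6 CPM with BPTES and 58.3 and 85.8 CPM with DMSO (-1.04 ± 0.228, edgeR adjusted p = 0.121). DESeq2, with 1.21% of genes called lower, called it at an adjusted p of 0.0145. B cell genes moved with it: Cd79a (-2.01) and Ighd (-2.18) were called lower by edgeR, both at an adjusted p of 0.0493, and the index was 2.03 and 2.54 UMIs per cell against 4.33 and 8.70. Without the cells carrying 2 or more index UMIs, H2-DMb2 changed by -0.53 with an edgeR adjusted p of 0.599, with the expected B cell RNA subtracted by -0.64 with 0.270, and with cells clustered at resolution 2 by -0.51 with 0.516.

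H2-DMb2, the beta chain of B-like cells, was below 0 in several classes with little of it. Its log2 fold change was -1.39 in T-like, -1.40 in ciliated-like, -1.16 in alveolar fibroblast-like and -0.87 in general capillary-like cells, with edgeR adjusted p of 0.353, 0.517, 0.114 and 0.165, the third being the lowest of all 144 tests. In B-like cells themselves it changed by -0.11. The BPTES libraries held 717 and 623 B-like cells and the DMSO libraries 1390 and 1613. These numbers are set in part by the sort, and their part in the H2-DMb2 values was not tested. The H2-DMb2 difference expected from the index, in UMIs per cell, was 26.5% of the observed one in T-like, 62.2% in ciliated-like, 92.3% in alveolar fibroblast-like, 98.8% in general capillary-like and 70.5% in interstitial macrophage-like cells, on low levels in all but the last. Scaled to depth these shares were 27.5%, 58.9%, 97.9%, 97.3% and 59.9% in the same order.

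Alveolar macrophage-like cells, which clear the airspace, had 7 of 8 members lower without overlap (18.9% of all genes). Cd74 was at 1620 and 2537 CPM with BPTES and 4837 and 2864 CPM with DMSO. The 4 abundant genes lay between -0.87 and -0.83 with edgeR adjusted p of 0.70 to 0.71, on 36 to 110 cells per library. For Cd74 the value fell to -0.43 without DMSO replicate 1, the high library, and grew to -1.23 without BPTES replicate 2. The share of thinned cells with at least 3 class II UMIs also spread widely. It was 62.8 ± 24.1% with BPTES and 87.2 ± 13.1% with DMSO (mean ± SD), and the groups overlapped. The difference expected from the B cell index was 4.77% of the observed difference in class II UMIs of this class.

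General capillary-like cells had 5 of 8 members lower without overlap (28.2% of all genes). Cd74 was at 1058 and 792 CPM with BPTES and 1292 and 1148 CPM with DMSO (-0.33, edgeR adjusted p = 0.208), the lowest of the 4 abundant genes, which lay between -0.33 and -0.17. The difference expected from the B cell index was 5.38% of their observed difference of 3.81 UMIs per cell. Venous-like cells (Cd74 at 759 and 609 against 984 and 875 CPM, edgeR adjusted p = 0.276) and arterial-like cells (134 and 151 against 203 and 237 CPM, edgeR adjusted p = 0.222) were lower in the same way without passing. In lymphatic-like cells the 4 abundant genes lay between -0.71 and -0.41, with edgeR adjusted p from 0.120 to 0.588. Aerocyte-like cells, the other capillary class, were not lower. There the 4 abundant genes lay between 0.04 and 0.52 at low levels, with edgeR adjusted p from 0.387 to 0.935. The 2 larger general capillary-like clusters, tested one by one after the values were seen, gave -0.41 and -0.33 for Cd74 with edgeR adjusted p of 0.164 and 0.488. The unnamed cluster led by Gja4, Sox17 and Efnb2 gave -0.42 with 0.16.

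Type 2-like cells also went the other way from general capillary-like cells, within their spread. Cd74 was at 3100 and 2800 CPM with BPTES and 2498 and 2906 CPM with DMSO, which overlap, and H2-Aa at 1076 and 1025 against 888 and 999 CPM, which do not. The 4 abundant genes lay between 0.13 and 0.20 with edgeR adjusted p from 0.33 to 0.55, and 3 of 8 members were higher without overlap on the normalized scale (23.5% of all genes). The difference from general capillary-like cells was 0.60 for Cd74 and did not pass (edgeR adjusted p = 0.216, 0.145% of genes called). B-like cells, with -0.17 to -0.11 for the 4 abundant genes and 6 of 8 members lower without overlap (18.6% of all genes), and conventional dendritic-like cells, with 0.04 to 0.07, were close to 0 and had no call in edgeR. At low levels, the 4 abundant genes lay between 0.18 and 0.35 in T-like cells (edgeR adjusted p from 0.724 to 0.891). In neutrophil-like cells they lay between -0.06 and 0.40 (edgeR adjusted p from 0.487 to 0.977).

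The genes around class II RNA were tested by lists in all 20 classes. None of 174 tests of its transcription factors (Rfx5, Rfxap, Rfxank, the NF-Y subunits, Creb1, Spi1 and Irf8) passed, and none of 133 tests of loading and turnover genes, 46 of the costimulators Cd40, Cd80 and Cd86, or 7 of further class II genes. Over all genes of these classes edgeR called 0.143% of tests, so counts of 0 are near that background. Of 138 tests of the interferon-gamma signal that induces Ciita, 2 passed in edgeR, both lower and both for Irf1: in alveolar fibroblast-like (-0.56, adjusted p = 0.0407) and lymphatic-like cells (-0.60, adjusted p = 0.0186). In non-classical monocyte-like cells none of these genes passed, where edgeR called 0 of all 11811 genes. There the log2 fold change was 0.07 for Irf1, -0.24 for Rfx5, -0.17 for Spi1, 0.27 for Creb1 and -0.25 for Irf8, and -0.00 for Ctss, the protease that trims Cd74. It was -1.24 for H2-Oa (edgeR adjusted p = 0.563) and -0.04 for its partner H2-Ob (edgeR adjusted p = 0.996). It was 0.31 for Cd83 (edgeR adjusted p = 0.514), 0.24 for March1 (edgeR adjusted p = 0.589), which marks class II molecules for turnover, and 0.15 for the costimulator Cd86. Of 70 tests of the B cell index, 2 were lower (those of interstitial macrophage-like cells). Of 68 tests of further B and plasma cell RNA, 2 were higher, both in conventional dendritic-like cells: Jchain (6.54, edgeR adjusted p = 0.000495) and Igkc (3.20, edgeR adjusted p = 2.1e-05). In type 2-like cells 1 was lower, Igkc (-0.86, edgeR adjusted p = 0.0464). Of 71 tests of dendritic genes, Flt3 passed in classical monocyte-like cells (0.85, edgeR adjusted p = 0.0447), and none of 42 tests of interstitial macrophage genes passed.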

How the data were processed

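The authors deposited 1 matrix of raw UMI counts per library, made with Cell Ranger 8.0.1 and mm10, per the submitters' processing notes; the labels' protocols name 10x GEM-X 3' v4 chemistry. The lists and the members were chosen with earlier results of these data known. Cells with at least 500 genes, 1000 UMIs and at most 10% mitochondrial UMIs were kept, and the barcodes with the highest doublet scores were removed, 0.4% per 1000 barcodes. Cells were clustered without the class II genes on 2000 variable genes, 40 principal components and 15 neighbours (Leiden, resolution 1, seed 0; Python 3.11.15, scipy 1.17.1, igraph 0.11.9). To be named, a cluster needed 3 or more detected markers and a marker score of at least 1.5. Some clusters that met both bounds were still left unnamed. Those of 5339 and 625 cells had arterial and non-classical monocyte genes, respectively, near the top of their gene lists. The cluster of 2626 cells was shallow, and T cell receptor genes led the cluster of 1095 cells. The B-like cluster of 646 cells was shallow too and was named. Reads were assigned by the authors and genes on opposite strands or near-identical copies may share them.

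Counts were summed per library and class (at least 50 cells per library, 20 for dendritic and macrophage classes) and tested with edgeR 4.0.16 (R 4.3.3, TMM scaling, filterByExpr, quasi-likelihood test, Benjamini-Hochberg adjustment over all genes of the class, called at 0.05), with DESeq2 1.42.0 as an alternative. Differences between classes were tested in 1 edgeR model with a library block. Levels are CPM of those sums. Shares of cells came from cells thinned to 3000 UMIs and were compared with an exact permutation test. Free B cell RNA was estimated as the 7 index genes' UMIs per cell over those of B-like cells of the same library. The named genes are the 8 members in every class, the called genes of the lists, and the 10 genes with the highest correlation to the mean of the 4 abundant members among genes with at least 10 CPM in a class. edgeR was checked on counts drawn from the real means of 11870 genes for non-classical monocyte-like cells, where 49 to 50 of 50 genes set to change were called at each of 4 fold sizes and 8 of 11670 others. For B-like cells, on 12700 genes, it called 43 of 50 at 0.5-fold, 49 to 50 of 50 at the other 3 fold sizes and 3 of 12500 others. The drawn counts had the same preset spread for every gene, and only well-counted genes were changed. Real libraries can spread more, so the check does not show what share of real changes the test finds here. Depth is given with the data above; the alternatives and their effects follow below. Values of some single genes of the lists are not reported here.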

Additional observations from a re-analysis of the deposited data

Results flagged for a closer look

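In non-classical monocyte-like cells the response to BPTES differed from that of classical monocyte-like cells for 3 members, by an edgeR test of the difference itself with Benjamini-Hochberg adjustment. The difference on the log2 scale was -0.79 for H2-Ab1 (adjusted p = 0.0219), -0.86 for H2-Aa (adjusted p = 0.029) and -0.79 for Cd74 (adjusted p = 0.0205). All 3 calls were lost when either BPTES library was left out, with edgeR adjusted p from 0.203 to 0.407 without BPTES replicate 1 and from 0.271 to 0.316 without BPTES replicate 2.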

How the results depend on the processing

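Limits include 2 libraries per group and classes named from markers alone. Of 524 single-gene alternatives, 472 kept direction and side of the threshold, 35 passed newly, 6 no longer passed and 11 reversed. The count of members called in the 20 classes, 0 in the main analysis, was 5 with DESeq2, 28 with no filter, 8 with a replicate block, 5 at resolution 2, 1 with class II genes kept in the clustering, 1 with doublets kept and 1 to 8 when 1 library was left out. The share of all gene tests called rose too, from 0.143% to 1.54% with DESeq2, 3.04% with no filter, 1.86% with the block, 0.229% at resolution 2, 0.373% with doublets kept and 0.266% to 1.28% with a library left out, and was 0.143% with class II genes kept. In non-classical monocyte-like cells it was 4 with DESeq2, 5 with no filter, 4 at resolution 2, 1 with class II genes kept and 0 to 4 with a library left out. In general capillary-like cells it was 2 with no filter, 1 with the replicate block and 0 to 2 with a library left out. Exchanging the numbers of the BPTES libraries in the block, a choice made after seeing the data, gave 6 calls in all (0.91% of all gene tests) and 4 in non-classical monocyte-like cells (83 of 11811 genes). The shares of all gene tests given above are over all tested classes together. Shares within 1 class are not given for every setting, so the counts for single classes lack that background. Where a library was left out, the lone sample was assumed to vary like the others.

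Same-numbered libraries correlated at -0.153 (B-like) to 0.345 (general capillary-like) in their deviations over 7 classes. With 2 libraries per group the crossed pairing gives the same values with the sign turned, so these values cannot settle whether libraries were paired. The main fits treated the numbers as names, and the fits with a block on them are given above. For the differences between classes, members called were 4 with no filter and 0 to 4 with a library left out against B-like cells, 0 to 4 against classical monocyte-like cells (3 in the main analysis), 4 with no filter and 0 to 0 against T-like cells, and 5 with no filter and 0 to 0 for type 2-like against general capillary-like cells. With no filter 0.273% to 2.95% of all genes were called in these fits. Against B-like cells the share of all genes called was 0.0152% in the main analysis, 1.40% without DMSO replicate 2, 0.184% without DMSO replicate 1 and 0% to 0.0146% without a BPTES library. The share of the monocyte fall expected from free B cell RNA was 6.39% with Ighm and Igkc added, -0.454% with the index gene of the highest estimate alone, Cd79b, and -12.2% with all CD45+ cells outside the class as source, and 0.211% to 3.04% with a library left out (lowest without DMSO replicate 2). Directions reversed in classical monocyte-like cells, where the main values are near 0. With a library left out, H2-Aa ran from -0.23 to 0.32, H2-Ab1 from -0.37 to 0.21, H2-Eb1 from -0.45 to 0.27 and Cd74 from -0.16 to 0.32. H2-Aa was also -0.014 with class II genes kept in the clustering and -0.013 at a mitochondrial limit of 5%. In conventional dendritic-like cells the ranges were H2-Aa -0.077 to 0.21, H2-Ab1 -0.10 to 0.21, H2-Eb1 -0.12 to 0.22 and Cd74 -0.15 to 0.21, each lowest without BPTES replicate 1. The cause was not tested.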

Other observations

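Some values stood in no comparison above. A B-like cluster of 646 cells, whose depth was 0.162 of its libraries' median, had 6444 CPM of the summed chains and Cd74, against 20318 CPM in the main B-like cluster of 3697 cells. An unnamed cluster of 1833 shallow cells had 2467 CPM of the sum with 10.7 CPM of Ciita, and an unnamed cluster of 625 cells with monocyte and neutrophil genes had 2842 CPM. H2-Eb2, a neighbour of H2-Eb1, was at 79.6 ± 6.49 CPM in B-like and 40.7 ± 4.72 CPM in conventional dendritic-like cells, and at 141 ± 38.8 CPM in the 45 dendritic-like cells with Fscn1 and Cacnb3 among their leading genes (mean ± SD over 4 libraries).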
